A study of Sus scrofa with 5 samples.

Results

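*TP63*, *CXCL14*, *SFN*, *GRHL2*, *GRHL3* and *OVOL1* are 6 genes known from surface ectoderm and stratified epithelium, out of 30029 genes counted in single cells of porcine blastoids. They were selected by name, with their levels and joint detection in these cells already known, so their values are given as a description and no test is made of them. Blastoids are structures that resemble the blastocyst. They were made from porcine embryonic stem cells (pESCs), which the methods trace to parthenogenetic embryos. The cells were grown into blastoids in iBlastoid medium, in the 2-step method of the paper after clusters had formed in 4FXY medium (4FIXY medium without IWR1). The iBlastoid medium contains among others BMP4, activin A, bFGF, LIF, IL-6, CHIR99021, SB431542, DZNep, TSA and the WNT inhibitor XAV939. The blastoids were collected on day 6. Those with a cavity and 2 visible compartments were picked by hand and dissociated, and 2 libraries of pooled blastoids were sequenced by 10x Genomics scRNA-seq, so cells of 1 library share blastoids and preparation. Bulk RNA-seq of untreated pESCs in 4FIXY medium gave 3 further libraries. All samples descend from pESCs, no embryo or epidermis is among them, and nothing in the labels says that the libraries came from separate cultures, so any p-value measures only the spread between the libraries.

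The transcription factor p63, encoded by *TP63*, is the master regulator of stratified epithelia and appears when the ectoderm becomes committed to epidermis. Grainyhead-like factors such as *GRHL2* and *GRHL3* switch on genes of cell adhesion and barrier formation, and *OVOL1* is a zinc finger repressor that restrains mesenchymal genes in epithelial cells. *SFN* encodes the 14-3-3 sigma protein of epithelia, and *CXCL14* encodes a chemokine that skin and other epithelia secrete. Trophectoderm and amnion, which are early simple epithelia, share several of these genes with the surface ectoderm, so the genes alone do not name a cell type.

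In the Sscrofa11.1 assembly (susScr11), *TP63* occupies chr13:127115990-127347082 on the plus strand with 9 annotated transcripts, of which 2 start well inside the gene, the more internal at 127244096. *CXCL14* lies at chr2:137803988-137813118 on the minus strand in 4 exons, and *SFN* at chr6:84188521-84189824 on the plus strand in 1 exon. *GRHL2* lies at chr4:35368788-35565394 on the minus strand, *GRHL3* at chr6:82014022-82050240 on the plus strand and *OVOL1* at chr2:6526679-6538992 on the minus strand. For 5 of the genes, *OVOL1* left out, the windows from 250 bases before to 50 bases after the outermost annotated start, and the same around the more internal start of *TP63*, were searched on both strands for the letters of sites that Grainyhead-like, OVOL, p53 family and TFAP2 factors are known to bind and for a TATA box. The 4 windows that follow are those of *TP63*, *CXCL14* and *SFN*, the 3 members that encode no Grainyhead-like or OVOL factor. They are printed 5′ to 3′ on the strand of the gene, taken from the RefSeq assembly. Capitals mark a TATAAA and a match to the p53 family half-site.
TP63 at the gene start, plus strand, chr13:127115740-127116039: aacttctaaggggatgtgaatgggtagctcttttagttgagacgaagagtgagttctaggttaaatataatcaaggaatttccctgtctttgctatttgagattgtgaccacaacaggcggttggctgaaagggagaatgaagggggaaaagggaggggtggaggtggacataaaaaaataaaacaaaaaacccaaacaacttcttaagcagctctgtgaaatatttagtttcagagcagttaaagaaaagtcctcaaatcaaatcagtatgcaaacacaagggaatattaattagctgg
TP63 at the internal start, plus strand, chr13:127243846-127244145: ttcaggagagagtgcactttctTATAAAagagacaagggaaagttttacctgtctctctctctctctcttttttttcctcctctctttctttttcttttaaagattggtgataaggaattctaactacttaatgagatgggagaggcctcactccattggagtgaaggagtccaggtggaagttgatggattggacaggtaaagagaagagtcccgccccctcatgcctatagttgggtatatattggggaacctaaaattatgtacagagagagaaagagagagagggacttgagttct
CXCL14, minus strand, chr2:137813069-137813368: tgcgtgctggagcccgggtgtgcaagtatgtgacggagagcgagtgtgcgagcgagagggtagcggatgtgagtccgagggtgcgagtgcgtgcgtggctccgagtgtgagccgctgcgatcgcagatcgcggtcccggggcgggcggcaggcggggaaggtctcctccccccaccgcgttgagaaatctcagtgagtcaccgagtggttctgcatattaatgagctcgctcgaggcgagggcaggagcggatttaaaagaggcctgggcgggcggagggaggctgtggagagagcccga
SFN, plus strand, chr6:84188271-84188570: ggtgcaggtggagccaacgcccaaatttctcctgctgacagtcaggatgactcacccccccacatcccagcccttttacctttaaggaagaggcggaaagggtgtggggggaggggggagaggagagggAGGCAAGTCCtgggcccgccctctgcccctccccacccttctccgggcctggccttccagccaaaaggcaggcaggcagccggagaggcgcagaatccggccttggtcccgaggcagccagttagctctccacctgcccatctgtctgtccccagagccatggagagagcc

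None of the 6 windows of the 5 genes, counting both starts of *TP63*, held the Grainyhead-like octamer AACCGGTT, its shorter core ACCGGTT or the OVOL hexamer CCGTTA, which says only that these letters are not in these windows. The octamer, which reads the same on both strands and contains the core, was present in 21 of 19556 promoter windows of this length (0.107%), the core in 162 (0.828%) and the hexamer in 578 (2.96%). The *SFN* window held a single match to the p53 family half-site, found by name in 1179 windows (6.03%), and the window at the internal start of *TP63* held a TATAAA, found in 2137 windows (10.9%). None of the 6 windows held the letters GCCNNNGGC of the TFAP2 motif, which were present in 5124 windows (26.2%). The *CXCL14* and *SFN* windows were rich in G and C (65.3% and 64.7%) and both *TP63* windows were not (38.7% and 41.7%), with a median of 58.7% over all windows. These matches describe letters in a window and no binding was measured.

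Barcodes with at least 11223 unique molecular identifiers (UMIs) in library 1 and 9805 in library 2 were taken as cells, which gave 7369 and 8175 cells, 15544 in all. Pairs of values are given in this order of libraries throughout. The median cell held 29728 and 27588 UMIs, and the libraries shared 9 cell barcodes. Deep barcodes with more than 2 times the median, which can hold more than 1 cell, made up 8.03% and 10.2% and were kept. Levels are counts per 1000000 UMIs (CPM), and a gate is a level of at least 100 CPM of 1 gene in a cell. *GATA3*, a factor of trophectoderm and early ectoderm, was at that level in 3949 and 4094 cells. *GABRP*, the pi subunit of the GABA receptor, was so in 2727 and 2826 cells, *PAX6*, a neural and eye factor, in 514 and 659, *POU5F1*, a pluripotency factor, in 983 and 1682, and *COL3A1*, a collagen of mesenchyme, in 854 and 614. Because cells pass several gates, exclusive classes were also formed. The GABRP, PAX6, POU5F1 and COL3A1 classes passed that gate and not the other 3, the GATA3-only class passed *GATA3* alone, and the remaining cells passed several of the 4 or none of the 5. These are gates on single genes and not cell types.

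Of the genes of basal keratinocytes, the keratins and a hemidesmosome collagen were at or near 0 and integrins were not. *KRT5* stood at 0.157 and 0.083 CPM and *KRT15* at 0.476 and 0.264 CPM over all cells, *COL17A1* was at 0.65 and 0.577 CPM, and *KRT14* and *KRT17* are not among the counted genes. The integrin subunits of hemidesmosomes were present. *ITGB4* was sparse, at 5.65 and 5.97 CPM over all cells with a UMI in 15.6% and 15.45% of them. It stood at 6.46 and 5.94 CPM in the GABRP class and 7.86 and 8.46 CPM in the POU5F1 class. *ITGA6*, which other epithelia and stem cells also express, was at 67.9 and 64.0 CPM in *GATA3*-gated cells with at least 2 *TP63* UMIs and 39.9 and 38.8 CPM in those with none. In the fits within classes given below, its log2 fold change was 0.038 in the GABRP class and 0.34 in the GATA3-only class, without a call in either. Keratins of simple epithelia were abundant, *KRT8* at 4892 and 4484 CPM and *KRT18* at 3865 and 3847 CPM. The label of surface ectoderm therefore stands here for the names of the 6 genes, and the cells are called by their gates.

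*TP63* was most abundant in *GABRP*-gated cells. Its level was 94.5 and 77.9 CPM in the GATA3 gate, 135 and 119 CPM in the GABRP gate (127 ± 11.3, mean ± SD, n = 2 libraries), 44.5 and 33.4 CPM in the COL3A1 gate, 18.8 and 20.3 CPM in the PAX6 gate and 13.4 and 13.0 CPM in the POU5F1 gate. The order was the same in both libraries, and no neighbouring gates overlapped. With a gate of 50 CPM the means of the PAX6 and POU5F1 gates were 25.4 and 26.1 CPM, so the order of these 2 depends on the gate. In the exclusive classes it was 153.6 and 137.5 CPM for GABRP, 84.8 and 62.8 CPM for GATA3 only, 74.5 and 64.7 CPM for cells of no gate, 16.9 and 13.5 CPM for PAX6, 17.8 and 10.4 CPM for COL3A1, and 8.16 and 7.11 CPM for POU5F1. The GATA3-only class and the cells of no gate overlapped between libraries, as did the PAX6 and COL3A1 classes. The GABRP class held 55.3% and 57.0% of all *TP63* UMIs against 30.1% and 27.9% of the UMIs of all genes.

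A *TP63* UMI was present in 49.1% and 42.1% of all cells, and the highest cell held 68 and 52. In the GABRP class 76.9% and 72.6% of cells had 1, at median depths of 28469 and 26265 UMIs, against 14.2% and 8.79% in the COL3A1 class at 22452 and 19595 UMIs. With every cell thinned to 9805 UMIs the shares were 58.0% and 56.4% against 7.45% and 4.39%. RNA outside of cells reaches every droplet. In barcodes of 10 to 100 UMIs, taken as empty, *TP63* stood at 49.4 CPM (95% exact Poisson interval 39.2 to 61.4, for counting error only) and 33.7 CPM (26.7 to 42). The levels of the PAX6, POU5F1 and COL3A1 classes were below those of the empty droplets. Such RNA makes up only a part of the UMIs of a cell, and that part was not measured, so the level of empty droplets is not the level of background within cells. Single cells of these classes held many *TP63* UMIs, with 5 to 9 in 12 and 11 cells of the PAX6 class, 10 and 11 of the POU5F1 class and 12 and 3 of the COL3A1 class. With 10 or more there were 5 and 0, 4 and 5, and 9 and 2 cells in the same order of classes. The source of the UMIs in these cells was not tested.

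**Figure D1:**
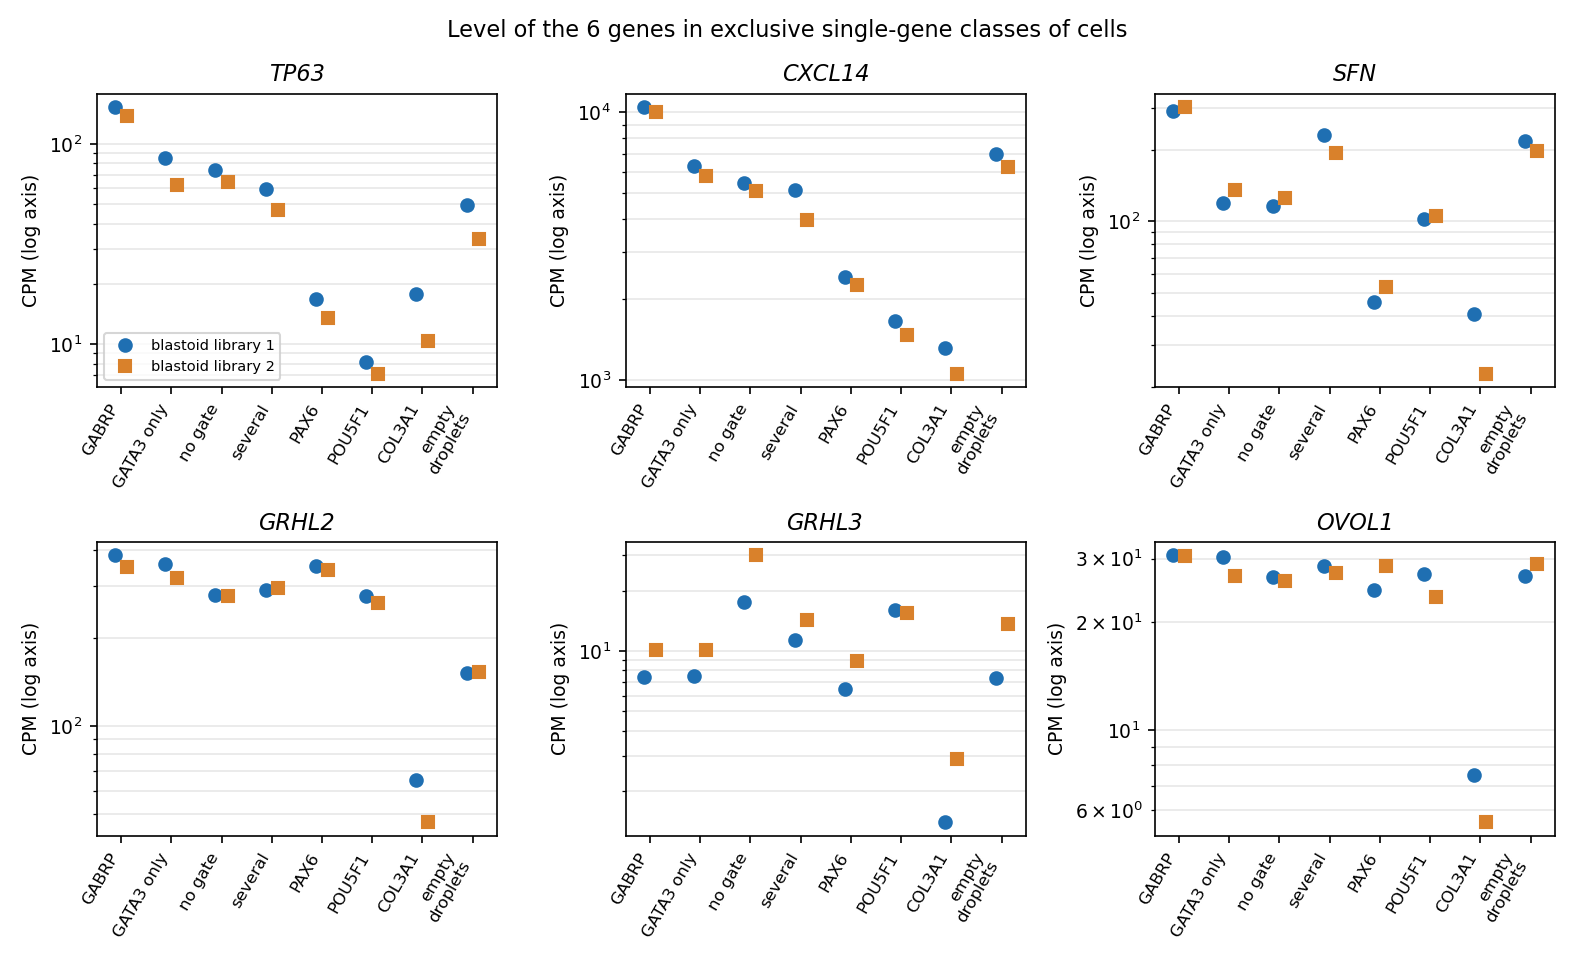
CPM (log axis) of the 6 genes in the exclusive classes and in empty droplets, with 1 point for each of the 2 blastoid libraries (circles library 1, squares library 2). *TP63*, *CXCL14* and *SFN* are highest in the GABRP class, *GRHL2* and *OVOL1* are at similar levels in all classes but COL3A1, and *GRHL3* is highest in cells of no gate.

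*CXCL14*, the secreted chemokine, was highest in the GABRP class, followed by the GATA3-only class and the cells of no gate, which for *TP63* had overlapped. It made up 0.618% and 0.551% of all UMIs, and single cells held up to 1906 and 1834. The GABRP class stood at 10497 and 10071 CPM, the GATA3-only class at 6303 and 5773 CPM and the cells of no gate at 5440 and 5076 CPM. It was lower in the PAX6 class (2421 and 2258 CPM), the POU5F1 class (1655 and 1477 CPM) and the COL3A1 class (1310 and 1053 CPM), and none of these classes overlapped between libraries. Empty droplets held 7000 and 6270 CPM, more than every class but GABRP, and at least 98.3% of the cells of each class had a UMI. A *CXCL14* UMI in a cell alone is therefore no sign of expression, and the GABRP class was the only class above the empty droplets.

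*SFN* was also highest in the GABRP class, with 291 and 305 CPM (298 ± 9.44, n = 2). Cells of several gates followed at 232 and 195 CPM, the GATA3-only class at 120 and 136 CPM, the cells of no gate at 116 and 126 CPM and the POU5F1 class at 103 and 106 CPM. The GATA3-only class and the cells of no gate overlapped. The PAX6 class held 45.8 and 52.8 CPM and the COL3A1 class 40.7 and 22.7 CPM, and empty droplets held 218 and 198 CPM. Only the GABRP class in both libraries, and the cells of several gates in library 1, exceeded the empty droplets of their library.

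*GRHL2*, the Grainyhead-like factor of simple and stratified epithelia, differed little between the classes apart from COL3A1. It stood at 383 and 349 CPM in the GABRP class, 358 and 320 CPM in the GATA3-only class and 352 and 341 CPM in the PAX6 class, and these 3 overlapped. The cells of no gate held 281 and 278 CPM and the POU5F1 class 278 and 264 CPM. The COL3A1 class was far lower, at 65.4 and 46.8 CPM, and also below the 152 and 153 CPM of empty droplets. After thinning, 87.5% ± 2.02 (n = 2) of cells of the GABRP class and 15.3% ± 0.354 of the COL3A1 class had a *GRHL2* UMI.

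*OVOL1* stood at similar levels in every class but COL3A1. It was 30.6 and 30.5 CPM in the GABRP class, 30.4 and 26.8 CPM in the GATA3-only class, 27.2 and 23.4 CPM in the POU5F1 class and 24.6 and 28.6 CPM in the PAX6 class, so the GABRP class was highest in both libraries, by little over the GATA3-only class, and the other 3 overlapped. The COL3A1 class held 7.51 and 5.54 CPM. Empty droplets held 26.8 and 29.0 CPM, from 44 and 68 UMIs, so the COL3A1 class was below them and the other classes were near them. No cell held more than 13 and 16 *OVOL1* UMIs.

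*GRHL3*, the Grainyhead-like factor of surface ectoderm and neural tube closure, had the fewest UMIs of the members and another order of classes. The cells of no gate were highest with 17.5 and 29.9 CPM, a wide gap between libraries, followed by the POU5F1 class with 16 and 15.5 CPM. The GABRP class held 7.43 and 10.1 CPM, the GATA3-only class 7.55 and 10.1 CPM and the PAX6 class 6.45 and 8.92 CPM, and these 3 overlapped. The COL3A1 class held 1.40 and 2.91 CPM and empty droplets 7.32 and 13.7 CPM. In the thinned cells a *GRHL3* UMI was found in 8.5% and 14.4% of the cells of no gate, 12.3% and 11.9% of the POU5F1 class and 5.99% and 8.06% of the GABRP class.

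Co-detection was read from thinned cells, so that depth per cell was equal. *SFN* was present in 71.7% and 71.6% of the cells with a *TP63* UMI and in 46.2% and 46.0% of those without. *GRHL2* was present in 88.8% and 88.1% against 71.8% and 72.1%. *OVOL1* differed less, 24.8% and 21.9% against 20.1% and 18.0%, and *GRHL3* was less frequent with *TP63* than without, 5.74% and 6.88% against 7.25% and 10.6%. *GRHL3* and *OVOL1* were found together 1.5 and 1.53 times as often as the product of their frequencies, the highest ratio of all pairs of members in both libraries. This ratio cannot be high for a pair with a gene found in most cells, so its order is no ranking of association. By the odds ratio at full depth, *GRHL3* and *OVOL1* had 2.55 and 2.43. *GRHL2* and *OVOL1* had more (7.92 and 6.79), and *TP63* and *OVOL1* had less (1.61 and 1.67). A mean of 3.58 and 3.53 members was detected per cell of the GABRP class and 1.32 and 1.23 per cell of the COL3A1 class, and all 6 were detected in 37 and 39 cells (0.502% and 0.477%).

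Across the 7369 and 8175 cells of each library, at full depth, Pearson's r of log2(CPM + 10) between *TP63* and *CXCL14* was 0.54 and 0.54. It was 0.35 and 0.30 between *TP63* and *SFN* and 0.30 and 0.25 between *TP63* and *GRHL2*. It was near 0 between *TP63* and *OVOL1* (0.089 and 0.083) and slightly negative between *TP63* and *GRHL3* (-0.063 and -0.091). Cells of a library share its background RNA and differ in depth, and with sparse counts such as those of *GRHL3* and *OVOL1* a weak correlation is no finding. Inside the GABRP gate, r of *TP63* with *CXCL14* was 0.34 and 0.41, whereas r with *SFN* was -0.0046 and 0.023. *TP63* and *SFN* were thus raised in the same gate but did not vary together within it.

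**Figure D2:**
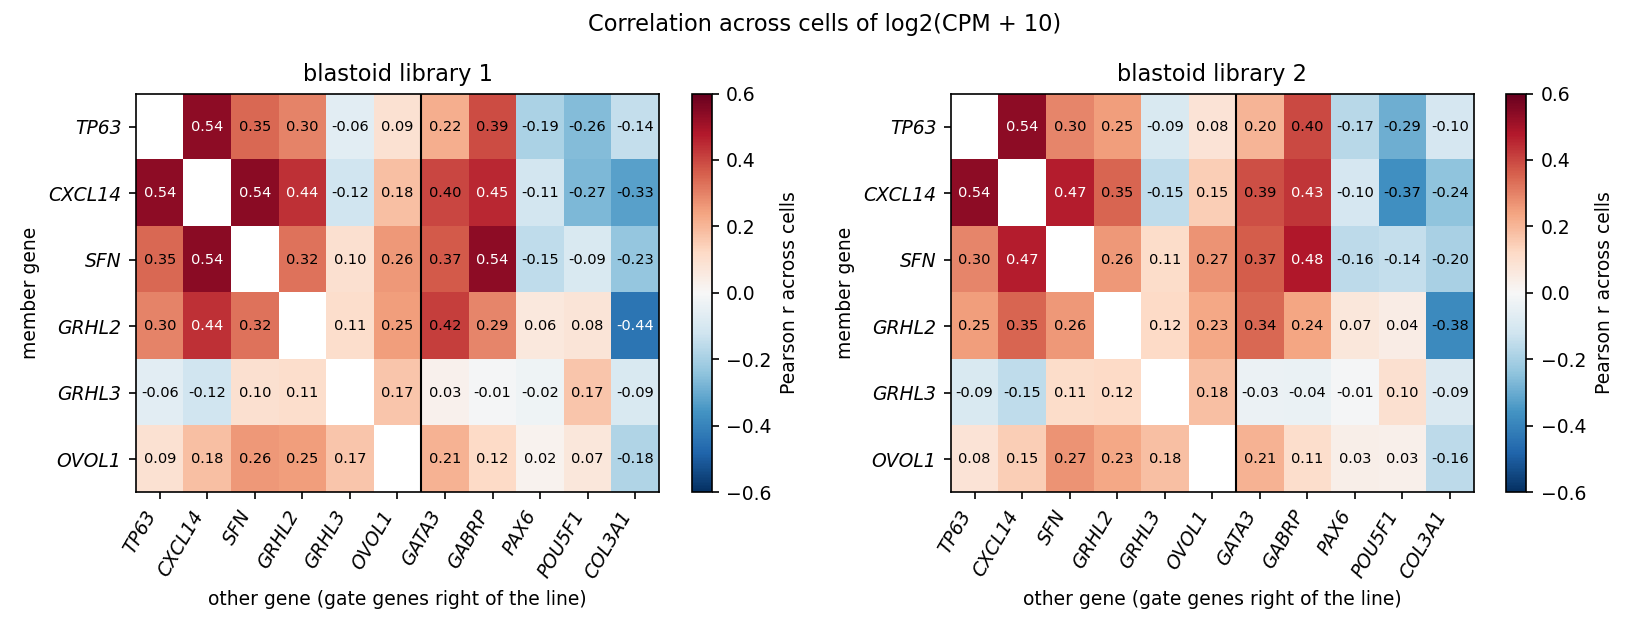
Pearson's r across all cells of each library (left library 1, right library 2) of log2(CPM + 10) between each member (rows) and the members and gate genes (columns), coloured from blue for negative to red for positive. *TP63* with *CXCL14* reads 0.54 in both libraries, and the row of *GRHL3* reads at most 0.18 after rounding.

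By r over 16609 genes, *CXCL14* was the gene most like *TP63*, and the 5 highest also included *WNT6*, a Wnt ligand of ectoderm (0.53 and 0.52), *NTRK2*, a neurotrophin receptor (0.51 and 0.50), and *PDE3A*, a phosphodiesterase (0.49 and 0.52). *SFN* was 107th in that order and *GRHL2* 189th. For *CXCL14* the most similar gene was *UPTI* with 0.79 and 0.76, followed by *NTRK2*, *WNT6*, *RAB3IP* and *TFAP2A*. For *SFN* it was *S100A14*, an S100 protein of epithelia, with 0.68 and 0.65, and the 5 highest also included *CST6*, *S100A16* and *UPTI*. The factors had other neighbours. *GRHL2* was most like *ESRP1*, an epithelial splicing regulator (0.59 and 0.52), and next *OSBPL10*, *SPINT2*, *EPCAM* and *CDH1*, while *OVOL1* was most like *CLDN4*, a claudin of tight junctions (0.34 and 0.33), and next *ESRP1*, *CDH1*, *TFAP2A* and *SPINT1*. *GRHL3* was most like *PAX7*, a factor of neural crest and dorsal neural tube (0.35 and 0.41), and next *SNTG1*, *ALK*, *UPK2* and *CXADR*. These lists depend on the measure. With Spearman's rho 1 of the 5 genes was kept for *GRHL2*, 2 for *GRHL3*, 3 for *OVOL1* and 4 for each other member, and with log2(CPM + 100) 2 were kept for *TP63* and *GRHL2*, 3 for *GRHL3* and 4 for each other member.

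Among *GATA3*-gated cells, *CXCL14* was higher in cells with more *TP63* UMIs up to 2 to 4 and was nearly level above. It was 4069 and 3821 CPM at 0 *TP63* UMIs, 6602 and 6493 CPM at 1, 9268 and 8749 CPM at 2 to 4, 10011 and 9529 CPM at 5 to 9, and 9842 and 9682 CPM at 10 or more. *SFN* was highest in the middle, with 167 and 190 CPM at 0, 247 and 247 CPM at 2 to 4 and 212 and 215 CPM at 10 or more. *GRHL2* was highest at the top, with 336 and 316 CPM at 0 and 424 and 416 CPM at 10 or more, and *OVOL1* moved from 30.9 and 29.0 to 34.5 and 32.7 CPM. *GRHL3* stood at 11 and 12.9 CPM at 0 and at 7.61 and 9.87 CPM at 10 or more. Cells with 10 or more *TP63* UMIs were deeper, with 39160 and 39922 UMIs at the median against 31260 and 28178 at 0. The part of depth in these levels was not tested.

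**Figure D3:**
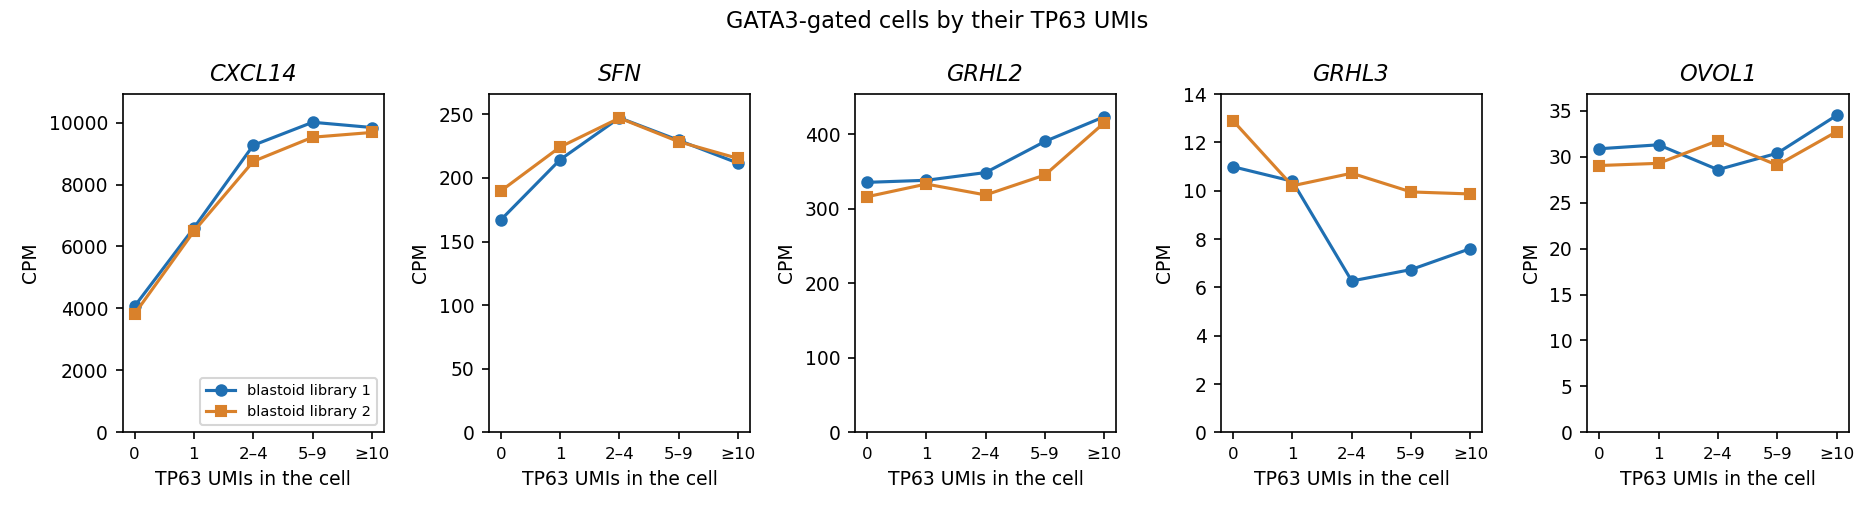
CPM (linear axes from 0) of the 5 other members in *GATA3*-gated cells grouped by their number of *TP63* UMIs, 1 line for each library. *CXCL14* is 4069 and 3821 CPM without *TP63* UMIs and 9268 and 8749 CPM at 2 to 4, and *OVOL1* stays near 30 CPM in all groups.

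To find the genes that accompany *TP63*, the counts of *GATA3*-gated cells with at least 2 *TP63* UMIs (1786 and 1517 cells) and with 0 (1696 and 2081 cells) were summed per library, and the 4 sums were compared with the quasi-likelihood test of edgeR. Median depth per cell was 32027 and 30358 UMIs with *TP63* and 31260 and 28178 UMIs without. Of 18411 genes tested, 4950 (26.9%) were called at an adjusted p under 0.05, 2548 (13.8%) higher and 2402 (13%) lower in *TP63* cells. With the library as a block, 9224 (50.1%) were called, 4534 (24.6%) higher and 4690 (25.5%) lower, so calls of single genes and lists with the block are to be read against that share. Counts of list genes in each other fit are likewise to be read against the shares of that fit. All 6 members passed the filter on low counts, and *TP63* itself is the gate. The groups differed in their make-up. The GABRP class was 58.3% and 60.6% of the *TP63* cells and 18.8% and 18.2% of the others, and the POU5F1 class was 1.34% and 2.04% against 20.8% and 25.9%. Among the *GATA3*-gated cells of the GABRP class (1041 and 919 with *TP63*, 319 and 379 without), which are meant by the GABRP class in all comparisons of *TP63* cells that follow, 1511 (9.43%) were called, 651 (4.06%) higher and 860 (5.37%) lower of 16017 tested, and within the GATA3-only class (552 and 439 cells against 697 and 771) 1568 (9.73%), 923 (5.72%) higher and 645 (4%) lower of 16123.

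Of the members, *CXCL14* stood at 9685 and 9260 CPM in *TP63* cells against 4069 and 3821 CPM in the others, a log2 fold change of 1.32. *SFN* stood at 230.5 and 232 CPM against 167 and 190 CPM (0.43), and *GRHL2* at 385.5 and 355 CPM against 336 and 316 CPM (0.24). For *OVOL1* the values were 31.0 and 31.2 CPM against 30.9 and 29.0 CPM (0.11). For *GRHL3* they were 6.83 and 10.2 CPM against 11 and 12.9 CPM (-0.44), and *GRHL3* was the only one of the 5 that was lower with *TP63*. Both libraries had the same direction for each of the 5, as they had for 80.8% of all genes tested, and for *OVOL1* the log2 ratio was 0.0060 in library 1 and 0.10 in library 2.

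Among the *GATA3*-gated cells of the GABRP class, *SFN* had the opposite direction. It was 275 and 284 CPM in cells with at least 2 *TP63* UMIs and 397 and 413 CPM in cells with none, a log2 ratio of -0.53 and -0.54, whereas in the GATA3-only class it was 142 and 147 CPM against 102 and 131 CPM, a ratio of 0.48 and 0.17. Other genes moved with *SFN* in that class. Of its nearest genes by r, *CST6* had a log2 fold change of -1.03, *S100A16* of -0.88 and *S100A14* of -0.77 there (adjusted p = 3.02e-05, 0.000112 and 0.000145). *TAC3*, which encodes neurokinin B and is on the amnion list, had -1.60 and *S100A6* -1.73 (adjusted p = 0.000234 and 2.96e-05). The gate gene *GABRP*, given as a description, was also lower with *TP63* there, at 539.5 and 542 CPM against 698 and 678 CPM, and across all cells its r with *SFN* was 0.54 and 0.48. In the GATA3-only class *GABRP* was 33.4 and 36.3 CPM against 23.5 and 23.4 CPM. The cells with and without *TP63* in the GABRP class thus differed in more than *TP63*, and the part of these genes in the *SFN* values was not tested. *CXCL14* was higher with *TP63* in both, with a log2 ratio of 0.46 and 0.50 in the GABRP class and 0.95 and 0.81 in the GATA3-only class. *GRHL2* was higher by 0.29 and 0.24 in the GABRP class and by 0.11 and 0.032 in the GATA3-only class. *OVOL1* and *GRHL3* had ratios of both signs in the GABRP class. Cells with *TP63* in the GABRP class were also deeper, 30103 and 29263 UMIs at the median against 26641 and 24130, and the part of depth in these ratios was not tested.

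**Figure D4:**
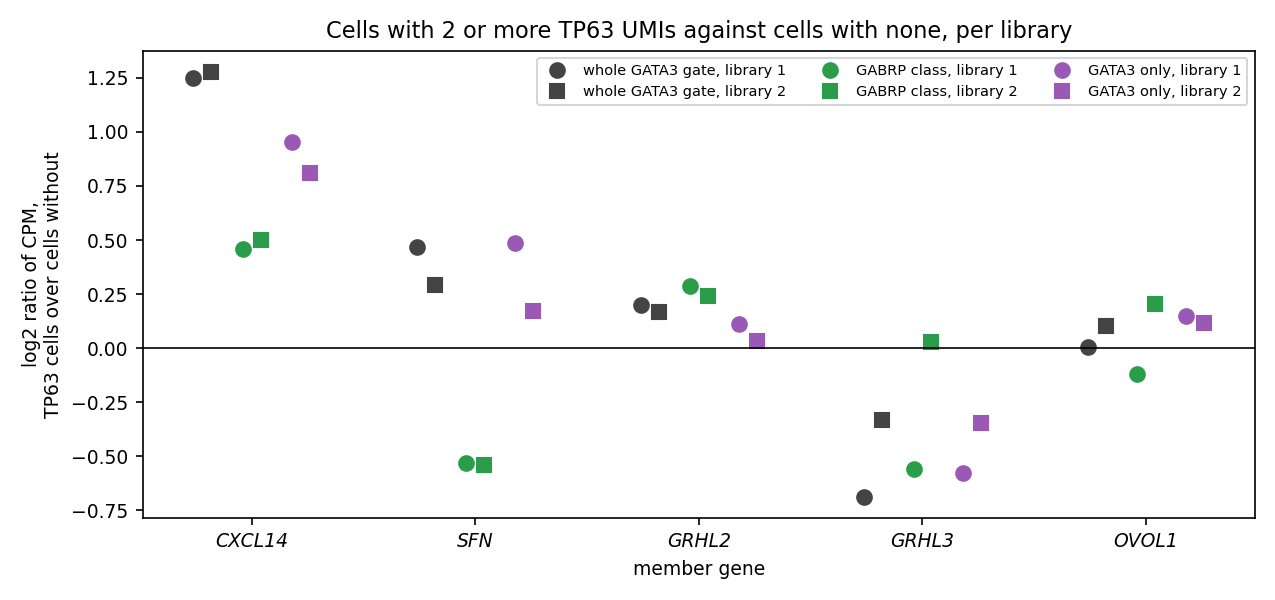
Log2 ratio of CPM in cells with at least 2 *TP63* UMIs over cells with none, for the 5 other members in the whole GATA3 gate (grey), the *GATA3*-gated cells of the GABRP class (green) and the GATA3-only class (purple), 1 symbol for each library and a line at 0. *SFN* lies at -0.53 and -0.54 in the GABRP class and above 0 in the other populations.

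Genes linked to p63 and the basal epidermis accompanied *TP63*. Of the 20 genes in this list 18 were counted and 17 tested, of which 15 were higher, 1 was lower and 1 was not called, with a median log2 fold change of 0.87 against -0.0038 over all genes. Of all genes 13.8% were called higher and 13% lower. In the GABRP class 6 were higher and 1 lower (median 0.20), beside 4.06% and 5.37% of all genes there. In the GATA3-only class 11 of 15 tested were higher and none lower (median 0.72), beside 5.72% and 4% of all genes. *TRIM29*, a regulator of epithelial gene expression, stood at 5.77 and 5.85 CPM in *TP63* cells against 1.37 and 1.86 CPM (log2 fold change 1.89 ± 0.17 SE, adjusted p = 0.000432). *ITGA3*, the integrin alpha 3 that binds laminin, stood at 63.1 and 55.5 CPM against 21.6 and 18.9 CPM (1.61 ± 0.079, adjusted p = 5.62e-05). The most abundant members of the list, *PERP*, a desmosome protein under p63 control, and *DST*, which anchors keratin at hemidesmosomes, rose by 0.41 and 0.27 on the log2 scale. *PKP1*, a plakophilin of stratified epithelia, fell by 0.62. *KRT5* was counted 10 and 12 times in *TP63* cells and 3 and 3 times in the others and was not tested.

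The early transcription factors of surface ectoderm did not move together. Of 11 tested beside the gate gene *GATA3*, 4 rose, 4 fell and 3 were not called, with a median of 0.18, and with the library as a block 6 rose and 5 fell. In the GABRP class 1 rose and 2 fell (median -0.084). *ISL1*, a factor of amnion and cranial ectoderm, stood at 93.1 and 82.7 CPM in *TP63* cells against 42.2 and 32.5 CPM (log2 fold change 1.29 ± 0.11 SE, adjusted p = 0.000375), and *TFAP2B* rose by 1.29 at under 20 CPM. *TFAP2A*, the most abundant, rose by 0.37. *DLX5*, a homeobox factor of the neural plate border and placodes, fell from 139 and 139 CPM to 72.6 and 68.7 CPM (-0.92 ± 0.047, adjusted p = 5.84e-05). In the GABRP class *DLX5* had -0.084 and *TFAP2A* 0.010, both without a call, while *ISL1* was still called higher (0.36). *GATA3*, the gate of both groups, had 195.9 and 189 CPM against 201.5 and 204 CPM.

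Calls among partners and targets of the Grainyhead-like and OVOL factors differed between the fits, as they did over all genes. Of 15 genes, 3 rose and none fell without a block for the library (median 0.071), and 8 rose and 3 fell with it, beside 26.9% and 50.1% of all genes called in either direction, while in the GABRP class none rose and 8 fell (median -0.27). Those that rose without the block were *OVOL2*, the paralog of *OVOL1* (7.17 and 7.01 CPM against 5.68 and 5.07 CPM, log2 fold change 0.46 ± 0.096 SE, adjusted p = 0.0144), the splicing regulator *ESRP2* (0.38) and the cadherin *CDH1* (0.18). *CDH1* was lower with *TP63* in the GABRP class (log2 fold change -0.20, adjusted p = 0.0374). *CLDN4* stood at 406.5 and 416.5 CPM against 404 and 421 CPM and *CLDN7* at 307 and 325 CPM against 336 and 369 CPM, and neither was called, though *CLDN7* was lower with the block (-0.10, adjusted p = 0.000358). Of 11 keratins and junction genes of simple epithelia, 6 rose and none fell (median 0.16), 9 and 1 with the block, but in the GABRP class none rose and 6 fell (median -0.28). *KRT7*, a keratin of simple epithelia and trophoblast, rose by 0.53 in the whole gate and had a log2 fold change of -0.61 in the GABRP class, and *KRT18* rose by 0.30 and had -0.46 there.

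Of the 6 other 14-3-3 genes, the family of *SFN*, 3 fell and none rose (median -0.12). With the library as a block 4 fell and none rose, beside 25.5% and 24.6% of all genes called lower and higher in that fit. *YWHAQ* fell by 0.22 and *YWHAZ*, the most abundant, stood at 498 and 526 CPM against 517 and 551 CPM and was not called. Among 5 tested chemokines and receptors beside *CXCL14*, 1 rose and 1 fell (median -0.28). Of all genes 13.8% were called higher and 13% lower without the block, so 1 of 5 in each direction is no result about this list. *CXCL12*, the ligand of CXCR4 and ACKR3, fell from 165 and 184.5 CPM to 92.9 and 104 CPM (log2 fold change -0.77 ± 0.084 SE, adjusted p = 0.00101), and *ACKR3*, its scavenging receptor, rose by 0.59 at 6.48 and 6.67 CPM. Over all cells, not only those of the GATA3 gate, *ACKR3* had a log2 fold change of -0.50 and *YWHAZ* one of 0.045.

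Of 9 tested mesenchymal genes that OVOL and Grainyhead-like factors oppose, 5 fell, 1 rose and 3 were not called (median -0.82), and with the library as a block 8 fell and 1 rose. In the GABRP class 4 fell and none rose, with a smaller median of -0.16. *CDH2*, the cadherin of mesenchyme and neural tissue, stood at 25.3 and 25.6 CPM in *TP63* cells against 58.3 and 55.8 CPM (log2 fold change -1.11 ± 0.050 SE, adjusted p = 4.32e-05). *ZEB2*, a repressor of *CDH1*, fell by 1.08 at under 10 CPM, and *VIM*, vimentin, fell by 0.90. *FN1*, fibronectin, rose by 0.40 and had -0.094 in the GABRP class. *TWIST1* fell by 0.82 with an adjusted p of 0.0493, close to the threshold. The list of mesenchyme and fibroblast genes showed, beside the gate gene *COL3A1*, 1 gene higher and 1 lower of 9 without the block and 1 higher and 7 lower with it, and none of 8 in either direction in the GABRP class. *POSTN*, periostin, rose by 0.88 but had -0.11 in the GABRP class, and *COL3A1* itself, a gate gene, stood at 47.2 and 19.8 CPM against 50.2 and 31.2 CPM.

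Markers of other cell types that the blastoids could hold also differed between the groups. The gate genes *GABRP*, *PAX6* and *POU5F1*, which belong to 3 of these lists, were left out of the counts. Of 9 amnion genes, 5 rose and none fell (median 0.95), 7 and 1 with the block, but in the GABRP class 2 rose and 5 fell (median -0.22). *TNC*, tenascin C, stood at 191 and 181 CPM against 54.1 and 49.2 CPM (log2 fold change 1.91 ± 0.053 SE, adjusted p = 1.98e-05), and *VTCN1*, an immune checkpoint ligand of amnion, and *TIMP1*, a protease inhibitor, rose by 1.45 and 1.31 but had -0.27 and -0.22 in the GABRP class. The larger decreases of the list there were those of *S100A6* and *TAC3*, given above, and of *HAND1*, a factor of amnion and mesoderm (-0.73, adjusted p = 0.00151). *S100A6*, the most abundant of the list, stood at 960.5 and 923 CPM against 1011 and 1115 CPM and was called, as lower, with the block (adjusted p = 6.51e-06) and in the GABRP class. Of 11 tested trophectoderm and trophoblast genes, 5 rose and 4 fell (median 0.18), 7 and 4 with the block, while in the GABRP class 1 rose and 4 fell (median -0.25). In the whole gate *CYP17A1*, a steroid enzyme, rose by 1.35 and *ELF5* by 1.3, and *EOMES* fell by 1.91 at under 5 CPM. In the GABRP class *ELF5* was still called higher (0.37), while *CYP17A1* had -0.25 and *EOMES* 0.30, both without a call. Of 13 placode and neural genes 1 rose and 8 fell (median -1.16), 3 and 10 with the block. Of 7 pluripotency genes none rose and 5 fell (median -0.79), 0 and 6 with the block. Of 6 tested hypoblast genes none rose and 3 fell (median -0.52), 0 and 5 with the block. In the GABRP class 4 of 11 placode and neural, 1 of 6 pluripotency and 2 of 6 hypoblast genes were called lower. Over all genes 5.37% were called lower there against 13% in the whole gate, so fewer calls are not particular to these lists. *UTF1* and *ZIC2* of the pluripotency list fell by 1.47 and 1.45, and the hypoblast factor *GATA6* by 0.92, while *EYA1*, a placode coactivator, stood at 79.1 and 81.4 CPM against 78.9 and 77.3 CPM and was called, as higher, with the block (adjusted p = 0.00780) and in the GABRP class (0.59, adjusted p = 0.00105). In the GATA3-only class 7 of 11 placode and neural genes (median -0.65), 3 of 6 pluripotency genes (median -0.47) and 1 of 5 hypoblast genes (median -0.51) were called lower and none higher. Of all genes 4% were called lower there. The part of these lists in the other results was not tested.

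Of all genes, the largest increase by the rule was that of *DOCK8*, a guanine nucleotide exchange factor, with 37.8 and 36.7 CPM in *TP63* cells against 5.20 and 4.11 CPM (log2 fold change 3.06 ± 0.096 SE, adjusted p = 1.98e-05). It was followed by the uncharacterised *LOC102165318* (2.41), *TLX1*, a homeobox factor (2.40), *PLXNA2*, a semaphorin receptor (2.37), *SNAP91* (2.22), *PDE3A* (2.21), *LOC110257598* (2.05), *CCDC80* (2.03), *CSMD1* (1.97) and *ANKH* (1.95). In the GABRP class *DOCK8* was 49.9 and 48.2 CPM against 16.5 and 11.1 CPM. There 9 of the 10 were also called higher, with smaller log2 fold changes of at most 1.79, and *LOC110257598* was called in neither class (0.44 and 0.38). The largest decreases were those of *CYP26A1*, which degrades retinoic acid, at 38.0 and 39.8 CPM against 154 and 174.5 CPM (-2.03 ± 0.079, adjusted p = 3.40e-05), *POU5F1* (-1.83), *PAX6* (-1.81), *CLDN10* (-1.74), *SCN1A* (-1.61), *FST*, which encodes follistatin (-1.60), *ERAS* (-1.58, but 0.36 in the GABRP class), *CDH7* (-1.57), *SOX21* (-1.53) and *LHX5* (-1.48). *POU5F1* and *PAX6* are themselves gate genes whose values are a description, and several of the others are genes of neural tissue. The listed genes other than *POU5F1* and *PAX6* were all called lower in the GATA3-only class. Of them only *LHX5* (-0.58) was so in the GABRP class, and *CYP26A1* had -0.43 and *CLDN10* -0.18 there without a call. Both classes hold only cells below the gates of *POU5F1* and *PAX6*, so calls of these gate genes within the classes are no test. As a description, *PAX6* had -0.86 and *POU5F1* -0.35 in the GABRP class.

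Cells rich in *GRHL3* were few and carried less *TP63* than cells with no *GRHL3* UMI. At least 5 *GRHL3* UMIs were found in 92 and 154 cells. Of these, 52.2% and 61.0% passed none of the 5 gates, beside 18.5% and 19.7% of all cells. The GABRP class made up 9.78% and 14.3% of them, beside 30.8% and 28.2% of all cells. In the cells with at least 5 *GRHL3* UMIs *TP63* stood at 44.7 and 27.6 CPM against 89.1 and 73.0 CPM in cells with no *GRHL3* UMI. *CXCL14* stood at 2103 and 2549 CPM against 6587 and 6006 CPM. *OVOL1* was at 63.5 and 62.0 CPM against 24.7 and 22.8 CPM, and *SFN* at 223 and 284 CPM against 158 and 161 CPM. *PAX7*, the gene most like *GRHL3*, stood at 252 and 289 CPM against 7.24 and 8.41 CPM, and *ALK*, a receptor kinase of the developing nervous system, at 111 and 107 CPM against 1.92 and 1.57 CPM. Both were picked by their r with *GRHL3* over the same cells, so their high levels here follow from that choice and are no further result. Cells with at least 5 *GRHL3* UMIs were deeper, with 41874 and 39182 UMIs at the median against 28222 and 26080.

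**Figure D5:**
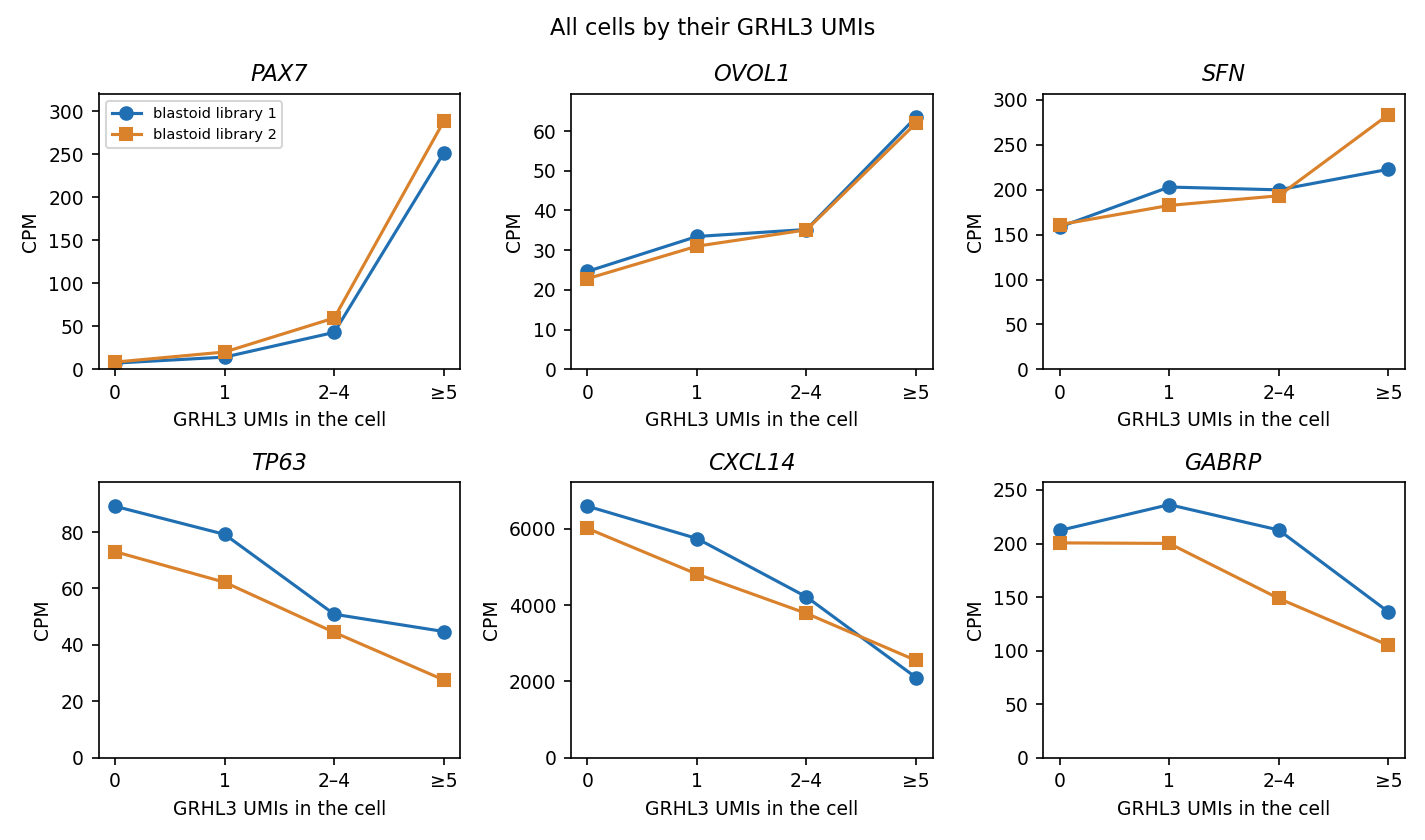
CPM (linear axes from 0) of 6 genes in all cells grouped by their number of *GRHL3* UMIs, 1 line for each library. *PAX7* and *OVOL1* are highest and *TP63*, *CXCL14* and *GABRP* lowest in the 92 and 154 cells with at least 5 *GRHL3* UMIs. *PAX7* was picked by its r with *GRHL3* over the same cells.

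In the pESCs, measured as FPKM, that is fragments scaled by transcript length and by the number of mapped fragments, and summed over the transcripts of each gene, *TP63* and *CXCL14* were low. The 3 columns carry names and no replicate numbers and are given as IVFP25, PA_4P7 and PAP25, in that order, and why the first begins with IVF is not given in the sources used here. *TP63* was 0.234, 0.0760 and 0.173 FPKM, of which the transcript from the internal start gave 0.204, 0 and 0.102. *CXCL14* was 0.750, 0.0859 and 0.307 FPKM (0.381 ± 0.338, mean ± SD, n = 3), so its libraries differed by more than the mean. *SFN* was 4.92, 1.62 and 1.18 FPKM, and IVFP25 stood above the others.

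*GRHL2* had the highest level of the members in the pESCs. It was 12.7, 10.9 and 12.9 FPKM (12.2 ± 1.10), and *OVOL1* was 3.02, 3.52 and 3.20 FPKM (3.25 ± 0.257). *GRHL3* was 0.894, 0.746 and 0.771 FPKM. On this length-corrected scale the order of the members was *GRHL2*, then *OVOL1* and *SFN*, which overlapped, then *GRHL3*, *CXCL14* and *TP63*, of which *CXCL14* overlapped with both others. *POU5F1* stood at 639, 506 and 432 FPKM and *KRT8* at 972, 732 and 1448 FPKM, while *GATA3* was 0.339, 0.122 and 3.97 FPKM, with PAP25 high. *GABRP*, the gate with the most *TP63* in blastoids, was 48.2, 51.9 and 21.3 FPKM in pESCs. A low value in bulk RNA can come from few cells or from little RNA per cell, which cannot be told apart here. FPKM of bulk libraries and CPM of single cells are different scales, and no level was compared between them.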

How the data were processed

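Single-cell RNA-seq of day 6 porcine blastoids (2 libraries) and bulk RNA-seq of pESCs (3 libraries) were used. For the blastoids, the authors mapped reads to susScr11 with Cell Ranger 7.1.0, per the submitters' processing notes, and the deposited values are raw UMI counts of every barcode. For the pESCs, the authors used Trim Galore 0.6.4, HISAT2 2.2.1 and StringTie 2.2.1, and the deposited values are FPKM per RefSeq transcript, which were summed here per gene symbol. The FPKM columns were assigned to pESCs as a group, since their names do not say which sample each is, and their depth is unknown.

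The 6 members, the gene lists and the gates were chosen with earlier results of these data known. Cells were barcodes at or above the UMI thresholds given in the report, doublets were not called, and barcodes over 2 times the median UMIs of their library were removed in an alternative. Total UMIs of all barcodes were 289452283 and 302211552. Cells were thinned to 9805 UMIs at random (seed 42), which left out no cell. The shares with a UMI, the intervals and the means ± SD over libraries were computed with Python 3.11.15, numpy 2.4.6, scipy 1.17.1 and pandas 2.3.3. Intervals are exact Poisson intervals and cover counting error only.

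For the comparison of *TP63* cells, counts of cells with at least 2 and with 0 *TP63* UMIs among cells at 100 CPM of *GATA3* were summed per library, filtered by filterByExpr, normalized by TMM and tested by the quasi-likelihood test of edgeR 4.0.16 in R 4.3.3, with Benjamini-Hochberg adjustment over all genes tested, an adjusted p under 0.05 as the threshold and no covariate. DESeq2 1.42.0 was an alternative. Counts of list genes without the gate genes, and the fits within classes, were added after seeing the data. On simulated counts for this comparison (18191 genes tested) 100 of 100 genes changed by 1 on the log2 scale and 95 of 100 changed by 0.5 were recovered, and 3 unchanged genes were called. The simulation changed 200 genes, far fewer than the 4950 called in the data, so it does not give the share of false calls there. Sums of the same library are paired by design, and their deviations from the group means correlated at 0.293 over 18411 genes. Genes were named by rule: the members, the list genes with the largest called change or highest CPM, the 10 called genes with the largest change in each direction with at least 20 CPM in a group and the same direction in both libraries, and the 5 genes of highest r with each member among genes with a UMI in at least 1% of cells. *COL17A1*, *KRT5*, *KRT15*, *ITGA6*, *ITGB4*, *TAC3*, *HAND1*, *PKP1*, *CDH1*, *ALK* and the gate genes were named after their values were seen. Coordinates and promoter windows were read from the RefSeq genome of Sscrofa11.1 with pysam 0.24.0, the *OVOL1* window and some genes that the rule names are not reported here, and figures were drawn with matplotlib 3.10.9.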

Additional observations from a re-analysis of the deposited data

Results flagged for a closer look

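For 15 genes named here, cells with at least 2 *TP63* UMIs differed from cells with none in opposite directions in the *GATA3*-gated cells of the GABRP class and in the GATA3-only class, in both libraries of each. Only genes named in this report were examined, and how many of all genes did so was not counted. The number is therefore no result about these genes. Some ratios were near 0 in the GATA3-only class, such as 0.068 and 0.0175 for *KRT8* and 0.020 for *SPINT1* in library 2. The difference between the classes was not tested. *SFN* is the member among them, with a mean log2 ratio over the 2 libraries of -0.54 (-0.535) in the GABRP class and ratios of 0.48 and 0.17 in the GATA3-only class. The keratins, the claudin, the cadherin and the protease inhibitor *SPINT1* went the same way as *SFN*, with GABRP class means of -0.55 for *KRT7*, -0.34 for *KRT8*, -0.40 for *KRT18*, -0.40 for *CLDN4*, -0.14 for *CDH1* and -0.36 for *SPINT1*, against positive ratios of at most 0.32 in the GATA3-only class. *TAC3* had the mean ratio farthest below 0 in the GABRP class, -1.55 (-1.545), against 0.56 and 0.035 in the GATA3-only class. Other genes of amnion and trophoblast had means of -0.22 for *VTCN1*, -0.17 for *TIMP1* and -0.20 for *CYP17A1* in the GABRP class, against ratios of 0.58 to 1.65 in the GATA3-only class. The gate gene *GABRP* had a mean of -0.35 (-0.347) in the GABRP class, against 0.51 and 0.63 in the GATA3-only class. *FN1* had -0.039 in the GABRP class, close to 0. *ERAS* and *ALK* were higher with *TP63* in the GABRP class. *ERAS* had a mean of 0.61 from ratios of 1.11 and 0.11, and was lower in the GATA3-only class (-1.87 and -1.62). *ALK* had a mean of 1.02 (1.015) from ratios of 1.34 and 0.69, and was lower in the GATA3-only class (-1.998 and -2.14).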

How the results depend on the processing

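The *TP63* levels depended on the gate. With a gate of 50 CPM the level of *TP63* was 112 CPM in the GABRP gate, 25.4 CPM in the PAX6 gate, 26.1 CPM in the POU5F1 gate and 55.7 CPM in the COL3A1 gate, and with a gate of 2 UMIs it was 105 CPM, 27.4 CPM, 29.7 CPM and 55.9 CPM. With a gate of 200 CPM it was 12 CPM in the PAX6 gate and 6.84 CPM in the POU5F1 gate. Without deep barcodes these were 15.8 CPM and 11.7 CPM, and with the cell threshold divided by 2 the POU5F1 gate held 13.8 CPM. The GABRP gate was the highest in each of these settings. Over all 6 members and 5 gates, levels moved to between 0.52 and 2.25 times the reported ones. The counts of called genes moved by over 1.5 times under 3 settings, of which both classes were chosen after seeing the data. The library pairs the sums by design, and with the library as a replicate block 4534 genes were higher and 4690 lower, including all 4950 called without it. Within the GABRP class 651 were higher and 860 lower, 896 of them shared, and within the GATA3-only class 923 and 645, 1488 of them shared, with fewer cells and genes in these fits. The other settings gave 1977 to 3384 higher and 1729 to 3305 lower genes, among them DESeq2 with 2104 and 1903. Leaving out a library leaves 1 sum a group and no test.

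The direction turned for these genes, with or without a call, and the cause was not tested. Of those that follow, *ERAS*, *FN1*, *EOMES*, *CYP17A1*, *POSTN*, *COL3A1*, *UPTI* and *ALK* were not called in the GABRP class. None of those given for the GATA3-only class was called there. Turns between values near 0, such as those of *EPCAM* and *UPTI*, are no finding. In the GABRP class the log2 fold changes became 0.36 for *ERAS*, -0.20 for *CDH1*, -0.46 for *CLDN4*, -0.61 for *KRT7*, -0.40 for *KRT8*, -0.46 for *KRT18*, -0.094 for *FN1*, -0.27 for *VTCN1*, -0.22 for *TIMP1*, 0.30 for *EOMES*, -0.25 for *CYP17A1*, -0.11 for *POSTN*, 0.25 for *COL3A1*, -1.03 for *CST6*, -0.77 for *S100A14*, -0.88 for *S100A16*, -0.045 for *UPTI*, -0.41 for *SPINT1*, -0.31 for *SPINT2*, 0.94 for *ALK*, -1.60 for *TAC3* and -0.73 for *HAND1*, the gate gene *GABRP* went from 1.30 to -0.40, and the member *SFN* went from 0.43 to -0.59. In the GATA3-only class they became -0.16 for *ACKR3*, -0.035 for *EYA1*, 0.33 for *COL3A1*, 0.0066 for *EPCAM*, -0.50 for *SNTG1* and -0.22 for *HAND1*. Over all cells they became 0.13 for *CLDN7*, 0.045 for *YWHAZ*, -0.50 for *ACKR3*, 0.28 for *S100A6*, 0.12 for *EPCAM*, -1.55 for *SNTG1* and -0.026 for *HAND1*. *SNTG1* became -0.51 in thinned cells and -0.41 without deep barcodes. Of the tested values for single genes, 793 kept their direction and side of the threshold, 49 lost the call and 33 gained it. With 1 library left out, which gives values and no test, 123 stayed within 1 SE of the reported value, 43 moved by more and no called value changed sign. *GRHL3* and *OVOL1* rest on few UMIs, and the part of background RNA within cells was not measured.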
